A study of Mus musculus with 2 samples.

Results

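Clca3a1 was followed at the RNA level and at the cell surface in the same single cells. It is 1 of the 31053 genes of the deposited UMI matrix, and its protein was 1 of the 3 surface proteins read by DNA-tagged antibodies (CITE-Seq, in which the transcripts of a droplet and the antibody tags on its cell are sequenced together and both counted by unique molecular identifiers, UMIs). Cells with under 10% of UMIs on mitochondrial (mt-) genes and over 1500 detected genes were kept, which left 4068 of 4688 cells, and 3986 of these also had tag counts. The cells were LSK cells (lineage-negative, Sca-1-positive, c-Kit-positive bone marrow cells, the fraction with the stem cells and the earliest progenitors) of C57BL/6JRj mice, untreated and without a transgene or deletion in the labels. The LSK_young group came from mice of 3 to 5 months and the LSK_old group from mice of 22 to 28 months, 4 mice per age group pooled into 1 library each. A barcode ends in the suffix 1 (1497 kept cells with tags) or 2 (2489), which marks the library. Which suffix belongs to which age is not given in the labels, so ages were not compared here, and library and age cannot be told apart. No barcode sequence occurred in both libraries (0 shared). There were no replicate libraries and no test was run. All 95% intervals below cover counting error only.

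CLCA proteins were named as calcium-activated chloride channels and are now known as cell-surface or secreted proteins with a metalloprotease domain that act on chloride currents of other channels. Mouse Clca3a1, formerly called Clca1, is best known from lymphatic endothelium and stroma, which the monoclonal antibody 10.1.1 stains. The surface markers used beside it, CD150 (encoded by Slamf1) and CD48, divide LSK cells, with CD150-positive CD48-negative cells as the gate that is richest in long-term stem cells. The comparison of transcript with tag addresses how far the surface readout follows the RNA of the gene.

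Clca3a1 lies on the minus strand at chr3:144729677-144760977 (GRCm38, GENCODE), a protein-coding gene of 31301 bp. GENCODE lists 1 protein-coding transcript of 14 exons and 3524 bases and 1 transcript of 13 exons and 3798 bases that is marked for nonsense-mediated decay. It is the outermost member of a cluster of Clca genes, and its neighbour Clca3a2 lies at chr3:144796559-144819494. The libraries were made from 3′ ends, and in the last 500 bases of the protein-coding transcript 378 of 451 words of 50 bases (83.8%) occurred in no other gene's transcript. Of the 73 shared words, 26 occurred in Clca3a2 and 47 outside the Clca family. Over the whole transcript 71.2% of such words were unique. The promoter below, from RefSeq's annotation of GRCm38.p6 (chr3:144760948-144761227, minus strand), is shown because the study concerns the coactivator TAZ, which acts through TEAD factors, and the factor PU.1. It is written 5′ to 3′ with the first 30 transcribed bases in capitals.
Clca3a1 promoter: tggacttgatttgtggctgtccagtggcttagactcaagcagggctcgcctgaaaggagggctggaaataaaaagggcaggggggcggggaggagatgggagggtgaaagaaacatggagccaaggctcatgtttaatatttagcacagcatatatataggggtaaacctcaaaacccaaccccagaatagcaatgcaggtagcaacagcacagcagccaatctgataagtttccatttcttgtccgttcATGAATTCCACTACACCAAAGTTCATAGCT
Neither the TEAD core GGAATG nor the PU-box GAGGAA occurred in these 280 bases on either strand (0 matches of each). Over all 32851 promoters of the table, 14.7% held the first and 28.3% the second in the same kind of window. These letters being absent here says nothing about distal elements.

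The 3986 cells held 1247 Clca3a1 UMIs among 70507795, a level of 17.7 CPM (counts-per-million, Clca3a1 UMIs over the UMIs of all genes, 95% interval 16.7 to 18.7). A Clca3a1 UMI was found in 635 cells (15.9%, 14.8 to 17.1), and the highest count in 1 cell was 13. The other 6 Clca genes of the matrix (Clca1, Clca2, Clca3a2, Clca3b, Clca4a and Clca4b) had 0 UMIs each, which allows at most 0.0425 CPM for each (3 counts of the total). Of the Clca genes in the matrix, Clca3a1 was thus the one with a detected transcript in these cells. The median CLCA3A1 tag count was 16 per cell, with a 10th percentile of 2, a 90th percentile of 215 and a highest value of 938. This tag was indirect. A second antibody that carried PE/Cy7 bound the hamster antibody to CLCA3A1 (clone 10.1.1), and a tagged antibody to PE bound the second one, whereas the antibodies to CD150 and CD48 carried tags themselves.

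The libraries stood apart in both readouts. In library 1, 3.07% of cells (2.26 to 4.08) held a Clca3a1 UMI, with 2.14 CPM and a median of 9 tags. In library 2, 23.7% (22.0 to 25.4) held one, with 27.4 CPM and a median of 26 tags. The CPM ratio of library 2 to library 1 was 12.8 (9.81 to 16.9), at median depths of 14891 and 15240 UMIs per cell. Depth differed little in the deposited counts, which were merged with a library normalization of unknown mode that may itself set this. Other values moved with the library. The median unmapped tag count was 26 in library 2 and 41 in library 1, and Igkc, an immunoglobulin gene of plasma cells, was found in 65.5% of cells of library 2 and 3.27% of cells of library 1. Dntt-expressing cells (at least 3 Dntt UMIs), lymphoid-primed progenitors taken as a reference for free RNA, held a Clca3a1 UMI in 2.40% of 334 cells of library 2 and 0.528% of 379 cells of library 1. The part of tag yield and free RNA in the gap between the libraries was not tested, and the results are given within each library too.

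The share of cells with the transcript climbed with the tag. Cells were ranked by CLCA3A1 tag count within their library and divided into deciles. Over both libraries 2.30% of cells in the lowest decile, 5.23% in the 5th, 14.2% in the 7th, 40.7% in the 9th and 55.6% (50.5 to 60.5) in the highest held a Clca3a1 UMI. The highest decile reached 77.7 CPM against 1.61 CPM in the lower 5 deciles, a ratio of 48.1 (36.7 to 64.2). Library 1 gave 50.0 (18.2 to 192), with 4 UMIs in its lower 5 deciles, and library 2 gave 50.9 (38.4 to 68.7). The interval of library 1 is too wide to tell whether the sizes were alike. For the 9th decile over the lower 5 the ratios were 2.95 (0.433 to 17.5) and 34.7 (25.9 to 47.2). The highest decile held 43.8% of all Clca3a1 UMIs, and the highest 2 deciles together 68.9%.

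The shape of the climb differed by library. In library 2 the share with a UMI was 7.02% in the 5th decile and went on in the last 4 through 23.2%, 46.2% and 63.5% to 75.4% (69.6 to 80.6). In library 1 it stayed between 0% and 1.99% in deciles 1 to 9 and was 22.3% (15.9 to 29.9) in decile 10. The tag counts that bound these deciles differed as well, since decile 10 began at 50 tags in library 1 and at 274 tags in library 2.

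**Figure D1:**
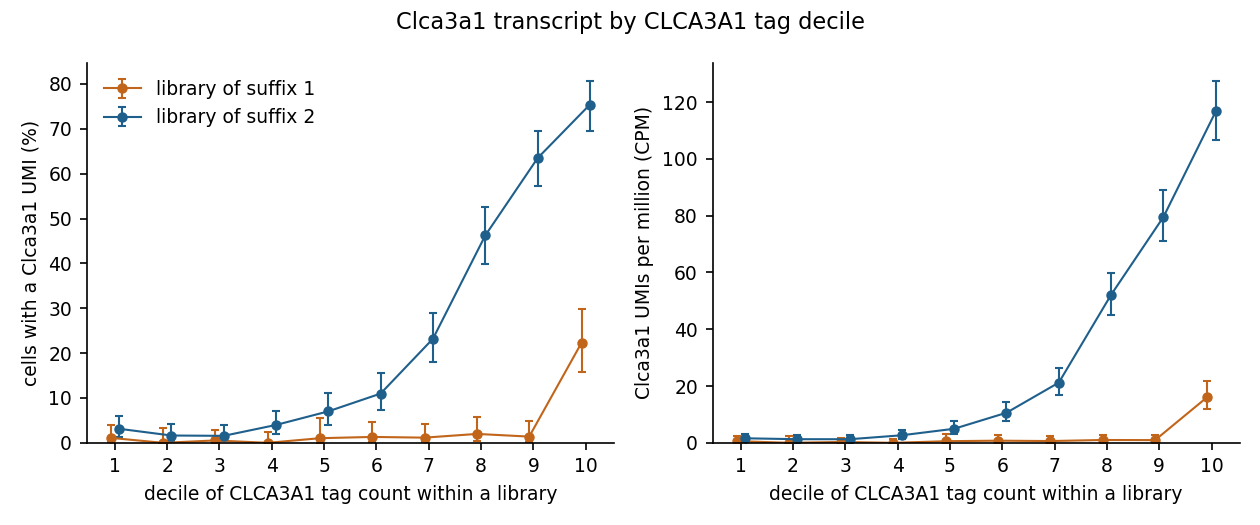
Share of cells with a Clca3a1 UMI (left, %) and Clca3a1 level (right, CPM) in deciles of the CLCA3A1 tag count, set within each library, with 95% intervals for counting error. Library 2 climbs from the 5th decile on to 75.4%, whereas library 1 leaves the floor in the highest decile, at 22.3%.

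Read the other way, cells with more Clca3a1 UMIs had higher tags over both libraries. The median tag count was 12 in the 3351 cells without a Clca3a1 UMI, 147 with 1 UMI (327 cells), 213 with 2 (150 cells), 244 with 3 (84 cells), 297 with 4 (41 cells) and 330 with 5 or more (33 cells). The largest step lay between 0 and 1 UMI, and the intervals of neighbouring medians overlapped from 2 UMIs on. All cells with 4 or more UMIs came from library 2, and in library 1 the medians were 81.5, 172.5 and 147 tags at 1, 2 and 3 UMIs (36, 8 and 2 cells). From 1 UMI to 5 or more, the median of the CD150 tag went from 512 to 808 and that of the unmapped tags from 35 to 52. On the log10 scale the medians of cells with and without a UMI differed by 1.22, by 1.06 in library 1 and by 1.11 in library 2. The spread within a count was wide: cells with 1 UMI had a 10th percentile of 19.6 tags and a 90th percentile of 332 tags.

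**Figure D2:**
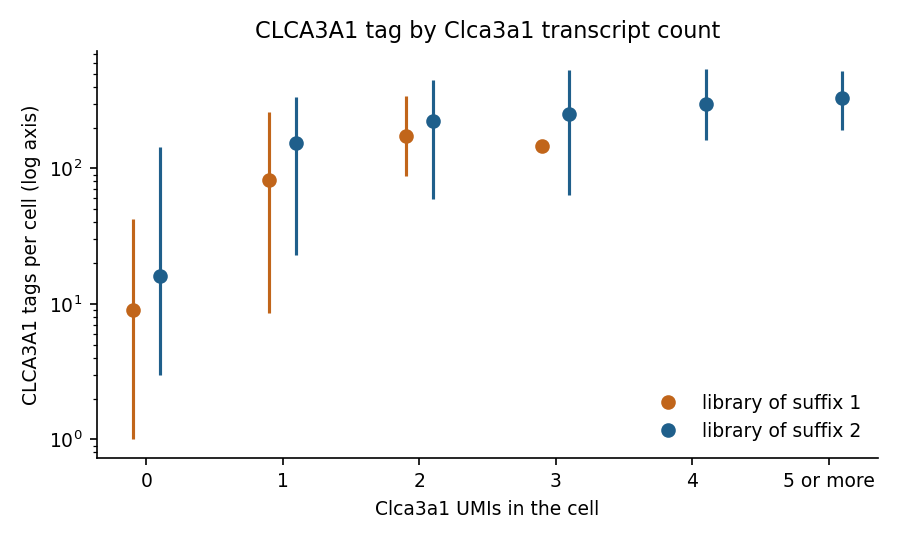
CLCA3A1 tags per cell (log axis) by the number of Clca3a1 UMIs in the cell and by library, with the median as a point and the 10th to 90th percentiles as a line. The medians go up from 9 and 16 tags at 0 UMIs to 330 tags at 5 or more UMIs in library 2, and library 1 has no cell with over 3 UMIs.

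Across the 3986 cells, Pearson's r of the transcript (log2 of 1 + counts per 10000 UMIs) and the tag (log10 of tag count + 1) was 0.527 and Spearman's rho 0.516. It was 0.272 in library 1 and 0.538 in library 2. These cells share libraries, depth and zero counts, so r is a description and no p is given. Slamf1 and the CD150 tag gave 0.503, and Cd48 and the CD48 tag 0.608, so the r of CLCA3A1 lay between those of the directly tagged proteins. In library 1 it was below both, as Slamf1 and CD150 gave 0.337 and Cd48 and CD48 gave 0.599 there. The Clca3a1 transcript also followed the CD150 tag (0.515, and 0.289 and 0.546 in the libraries, at or above the r with its own tag in each) and ran against the CD48 tag (-0.411), and the CLCA3A1 and CD150 tags followed each other more closely (0.752) than either followed its transcript.

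Ranking cells by the CLCA3A1 tag separated those with a Clca3a1 UMI from those without one with an area under the ROC curve (AUROC) of 0.905, where 0.5 is no separation and 1 is complete. The AUROC was 0.863 in library 1 and 0.883 in library 2. The CD150 tag ranked the same cells almost as well (0.894), and in library 1 it was higher than the CLCA3A1 tag (0.902 against 0.863). The CD48 tag ranked them in the opposite order (0.202), and the tags mapped to no antibody gave 0.593. Over all LSK cells the transcript thus followed both CD150 and CLCA3A1 tags.

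Transcript and tag were both higher in the CD150-high CD48-low gate than outside it. Gates were set within each library on tags other than CLCA3A1, at the 75th percentile for high and the 25th for low. In the CD150-high CD48-low gate (555 cells), 44.5% of cells (40.3 to 48.7) held a Clca3a1 UMI, with 66.8 CPM and a median of 154 tags. In the other 3431 cells it was 11.3% (10.3 to 12.4), 11.8 CPM and 12 tags, a CPM ratio of 5.64 (5.03 to 6.33). The ratio was 4.20 (2.20 to 7.63) in library 1 and 5.01 (4.45 to 5.63) in library 2. The gate held 40.3% of all Clca3a1 UMIs (27.6% in library 1) and 46.0% of the highest-decile cells, so most of both lay outside it. The 388 cells outside with a Clca3a1 UMI had a median of 165.5 tags.

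The other corners differed among themselves. The 56 CD150-high CD48-high cells, which meet the gate of megakaryocyte and erythroid-biased progenitors, held 13.3 CPM (8.52 to 19.8) and a median of 47 tags, at a median depth of 32784 UMIs. Within library 1 these were 46 cells with 3.49 CPM (1.13 to 8.14) and 41 tags, and within library 2 they were 10 cells with 51.2 CPM (30.8 to 80.0) and 236 tags. The CD150-high CD48-low gate had 7.10 and 92.3 CPM and 25 and 214 tags. The intervals of the tag medians overlapped in both libraries, the CPM ratio of the gates was 2.04 (0.713 to 7.11) in library 1 and 1.80 (1.14 to 3.02) in library 2. The shares with a UMI were 8.70% against 8.14% in library 1, at median depths of 31426 and 12917 UMIs, and 80% against 60.8% in library 2, at 35937.5 and 13477 UMIs. With each cell thinned to 9000 UMIs they turned, to 2.17% (0.0550 to 11.5) against 5.13% (2.24 to 9.85) and to 10% (0.253 to 44.5) against 49.3% (44.1 to 54.6), so no order is read from the shares before thinning. The 399 CD150-low CD48-high cells, where lymphoid- and myeloid-biased progenitors lie, held 0.522 CPM (0.170 to 1.22) and 6 tags, with a UMI in 4 cells. None of the 98 CD150-low CD48-low cells held a Clca3a1 UMI, which allows a share of up to 3.06% of cells with a UMI at this depth (median 11432 UMIs) and sets no limit on cells that express the gene. Their median was 4 tags. The 2878 cells between the corners held 14.2 CPM and 15 tags.

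The Dntt-expressing cells were taken as a reference for the level that free RNA or bound antibody can reach. That these cells lack the gene was assumed and not tested. Of 713 such cells 10 (1.40%, 0.675 to 2.56) held a Clca3a1 UMI, at 0.718 CPM and a median of 5 tags. Their median depth was 21967 UMIs, above the 13334 of the CD150-high CD48-low gate. With each cell thinned to 9000 UMIs (10 of the 713 and 36 of the 555 cells were shallower and left out), the share was 0.569% in Dntt-expressing cells and 36.0% (31.9 to 40.3) in the gate. The share of CD150-low CD48-high cells was 0.251% thinned. Their median tags (3 for CD150 and 812 for CD48) were near those of the Dntt-expressing cells (4 and 768). These groups can hold the same cells, so no order is read between them. The share of CD150-high CD48-high cells was 3.57% thinned (2 of 56 cells, 0.435 to 12.3).

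**Figure D3:**
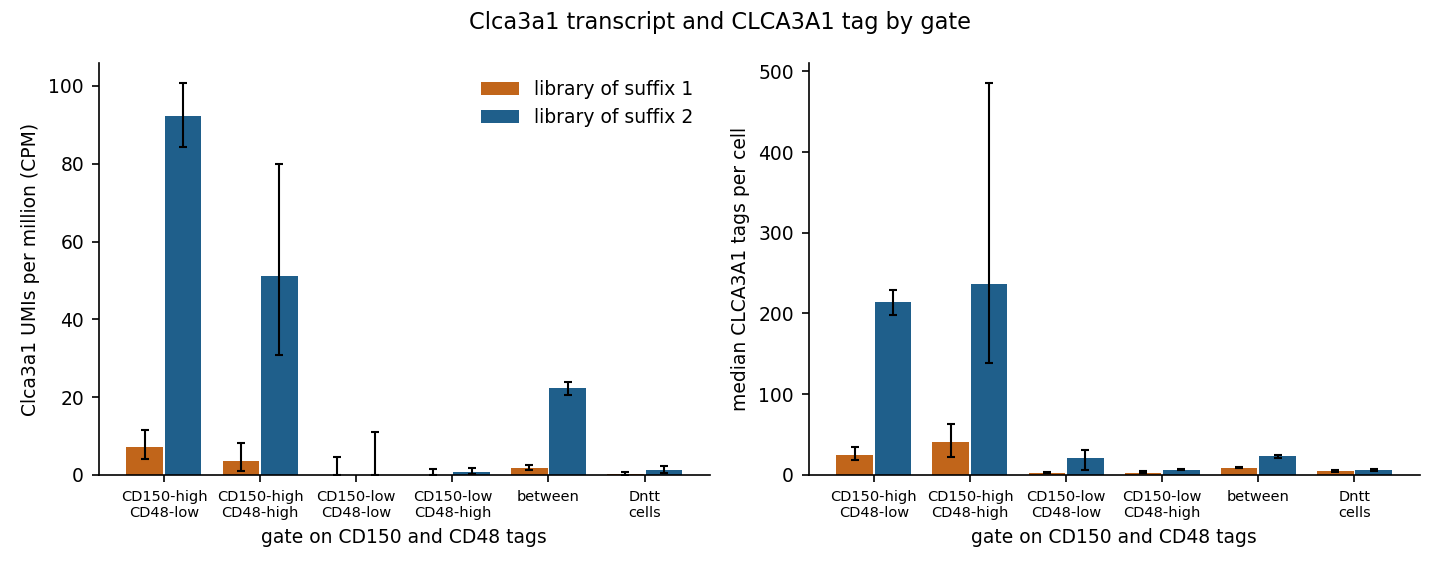
Clca3a1 level (left, CPM) and median CLCA3A1 tags per cell (right) in the gates on CD150 and CD48 tags and in Dntt-expressing cells, which were picked by their Dntt UMIs and not by tags, by library, with 95% intervals for counting error. In library 2 the bars of both CD150-high gates stand above the others in both panels, and the Dntt-expressing cells lie at 0.230 and 1.25 CPM.

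Inside the CD150-high CD48-low gate the tag still separated the cells. Its cells with a Clca3a1 UMI had a median of 234 tags (217 to 257) and those without one 76 tags (58 to 100). In library 2 alone these medians were 245 (224 to 259) and 172 (147 to 197), and in library 1 they were 120 (73 to 205, 14 cells) and 21.5 (15 to 30). By quintiles of the tag within the gate, the share with a UMI went from 23.4% over 43.1%, 41.1% and 54.5% to 60.4%, and the CPM of the highest over the lowest quintile was 3.03 (2.17 to 4.30). From the 2nd quintile on the intervals of neighbouring shares overlapped, and the CPM of the 3rd and 4th quintiles, 53.9 (42.8 to 67.0) and 85.2 (71.5 to 101), did not.

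In library 2 the CLCA3A1 and CD150 tags parted here. Within its gate, r of the Clca3a1 transcript was 0.252 with the CLCA3A1 tag and 0.031 with the CD150 tag (383 cells), and the AUROC was 0.667 against 0.549. The CD48 tag gave an AUROC of 0.629 and the unmapped tags 0.604 there, and the unmapped tags had an r of 0.471 with the CLCA3A1 tag. The gate was set on CD150, so its range within the gate was narrow. Within the gate of library 1, r was 0.302 with the CLCA3A1 tag and 0.295 with the CD150 tag, on 16 Clca3a1 UMIs in 172 cells, and the AUROC was 0.821 for CLCA3A1, 0.825 for CD150 and 0.759 for unmapped tags. Of 10631 genes detected well enough to compare, none had a higher r with the CLCA3A1 tag than Clca3a1 itself in the gate of library 2. In the gate of library 1, 8 genes had a higher one, with Clec1a the highest (0.383 against 0.302).

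Library 2 had more transcript than library 1 within the gate as well, with 92.3 CPM (84.3 to 101) against 7.10 CPM (4.06 to 11.5), a ratio of 13.0 (7.92 to 22.9). The share of cells with a UMI was 60.8% against 8.14%, and the median tag count 214 against 25. The gates were not equal in tags, since CD150-high began at 407 tags in library 2 and at 40 in library 1, and CD48-low ended at 42 and at 224 tags. With percentiles taken over both libraries together the ratio was 4.39.

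At the same number of CLCA3A1 tags, the Clca3a1 CPM of library 2 was above that of library 1 in each range. These ranges were chosen after the data had been seen. With 0 to 9 tags 2.28% of cells in library 2 and 0.645% in library 1 held a UMI, and with 30 to 99 tags 20.4% and 6.12%. With 100 to under 200 tags it was 48.1% (42.4 to 53.8) against 27.7% (15.6 to 42.6), and with 200 to under 300 tags 67.4% against 47.1%, with intervals that overlapped. Over all cells with 100 or more tags, 734 in library 2 and 67 in library 1, the shares were 61.7% and 34.3% and the CPM ratio 2.91 (2.07 to 4.23). Below 100 tags the CPM ratio was 3.95 (1.44 to 13.5) at 0 to 9, 5.06 (2.13 to 14.6) at 10 to 29 and 5.81 (3.28 to 11.2) at 30 to 99 tags. The gap between the libraries had a ratio of 2.04 to 5.81 at matched tags and of 12.8 over all cells, with overlapping intervals in part.

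**Figure D4:**
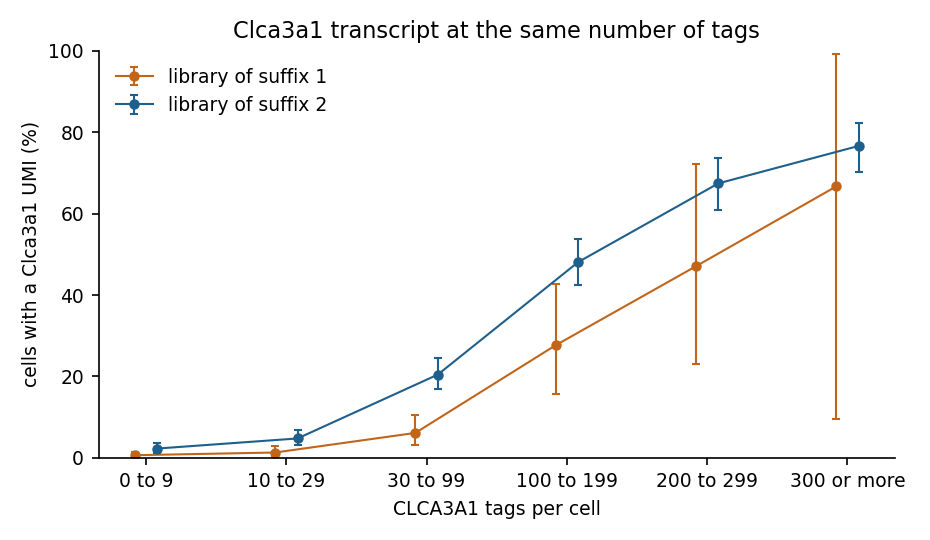
Share of cells with a Clca3a1 UMI (%) in fixed ranges of the CLCA3A1 tag count, by library, with 95% intervals for counting error. Library 2 lies above library 1 in each range, and the intervals overlap at 0 to 9 tags and in the 3 ranges from 100 tags on, where library 1 has 47, 17 and 3 cells.

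Not every cell with a high tag showed the transcript. Of the 396 cells in the highest tag decile, 176 (44.4%, 39.5 to 49.5) held no Clca3a1 UMI. In library 1 it was 115 of 148 (77.7%, 70.1 to 84.1) and in library 2 61 of 248 (24.6%, 19.4 to 30.4). A Poisson draw was set with the mean of this decile in each library (0.297 and 2.02 UMIs) and the depth of each cell. It would leave 74.9% of the decile without a UMI in library 1 and 16.6% in library 2. These means came from the same cells, so the draw is no outside reference. The Clca3a1 counts of this decile spread more widely than a Poisson draw, with a variance of 1.30 times the mean in library 1 and 1.96 times in library 2, which came to 1.40 and 1.14 times once each cell was thinned to 9000 UMIs.

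In library 2 this share was lower in deeper cells. By tertile of UMIs per cell, 34.1% (24.0 to 45.4), 22.9% (14.4 to 33.4) and 16.9% (9.54 to 26.7) of its highest-decile cells lacked a Clca3a1 UMI, at median depths of 12072.5, 15159 and 22492 UMIs. In library 1 the shares were 73.5%, 75.5% and 84.0%, with no fall towards the deeper cells. The tertiles also differed in tag, with median CLCA3A1 counts of 111, 93 and 76 in library 1 and 345.5, 354 and 382 in library 2. The opposite case was rare: 46 of 1965 cells in the lower 5 tag deciles (2.34%, 1.72 to 3.11) held a Clca3a1 UMI, 4 of 729 in library 1 and 42 of 1236 in library 2.

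In library 2 the highest-decile cells without a Clca3a1 UMI resembled those with one in their tags. Median counts were 346 against 361 for CLCA3A1, 900 against 884 for CD150, 43 against 41 for CD48 and 52 against 53 for unmapped tags. A like share lay in the CD150-high CD48-low gate (44.3% against 49.2%), and median depth was 14447 against 15529 UMIs. In library 1 the cells without a UMI had lower CLCA3A1 and CD150 tags, with 84 against 151 for CLCA3A1 and 170 against 607 for CD150. The CD48 medians were 272 against 264, and 27 of 115 were CD48-high against 4 of 33. In the CD150-high CD48-low gate lay 44.3% (35.1 to 53.9) against 36.4% (20.4 to 54.9).

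Gene levels were compared between the highest-decile cells without and with a Clca3a1 UMI as summed CPM with 10 added, for genes found in at least 10% of either group. Over both libraries 140 of 9957 genes (1.41%) were past 1.5-fold higher and 126 (1.27%) lower, 2.67% in all. These groups mixed the libraries unequally, so values within a library carry the description. In library 2, 68 of 9770 genes (0.696%) were past 1.5-fold higher and 136 (1.39%) lower, 2.09% in all, and 0 of the 12 genes of the stem cell list were among them. The median log2 ratio of that list in library 2 was 0.11, against -0.0026 over all genes. In library 1, with 33 cells on one side, 458 of 9997 genes (4.58%) were higher and 340 (3.4%) lower, 7.98% in all, and 2 of the 12 stem cell genes were lower.

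Of the genes with the largest differences over both libraries, the 5 higher ones had the opposite sign in library 2. The 5 highest in cells without a UMI were Shisa8, Tespa1, Wfdc17, Flt3 (a cytokine receptor of multipotent progenitors) and Hist1h1b (a linker histone of S phase), at log2 ratios of 1.51, 1.41, 1.36, 1.34 and 1.30. In library 2 alone they were at -0.08, -0.18, -0.26, -0.49 and -0.53, and in library 1 alone at 1.22, 1.34, 1.84, 1.33 and 0.40. Leaving out Clca3a1, whose difference the split itself sets, the 5 lowest were Igkc and Ighm (immunoglobulin chains), Pf4 (a platelet chemokine), Vwf (von Willebrand factor, found in platelet-biased stem cells) and Gadd45g (a stress-response gene). A single cell held 98.6% of the Igkc UMIs and 99.2% of the Ighm UMIs of the group with a Clca3a1 UMI, and 1 cell held 59.2% of its Pf4 UMIs. Without the highest cell of each group, Igkc was at -0.82, Ighm at 0.69 and Pf4 at -1.98. By the same rule they were at 0, 1.68 and -0.91 within library 1 and at 0.42, 0.15 and -1.85 within library 2. The fall of Igkc was thus present in neither library alone.

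Vwf was lower without a Clca3a1 UMI in both libraries, at 21.5 against 52.8 CPM in library 1 and at 88.6 against 136 CPM in library 2. It was found in 23 of 115 against 13 of 33 cells in library 1 and in 38 of 61 against 157 of 187 cells in library 2. Gadd45g had log2 ratios of -1.31 in library 1 and -0.45 in library 2. Cavin2, which encodes a caveolar coat protein, was at -1.23 in library 1 and -0.16 in library 2, and Slamf1 at -0.54 and 0.10.

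Highest-decile cells without a Clca3a1 UMI were then set against the 1919 cells of the lower 5 tag deciles without one, a comparison added after the data had been seen. Over both libraries 441 of 9863 genes (4.47%) were past 1.5-fold higher in the tag-high cells and 243 (2.46%) lower, 6.94% in all (3.95% in library 1 and 21.1% in library 2). By direction, 2.69% were higher and 1.26% lower in library 1, and 10.6% higher and 10.5% lower in library 2. All 12 genes of the stem cell list were higher past 1.5-fold over both libraries. 4 of them reached the detection limit through the tag-high cells alone and had to differ, so nothing is read from that count. Slamf1 was at 1.72, Vwf at 2.07 and Pdzk1ip1 at 2.02. In library 1 Hlf was at 0.05 and Meis1 at 0.50, short of 1.5-fold.

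Of the 12 genes of the progenitor list, 8 reached the detection limit over both libraries, 3 of them through the tag-low cells alone, so no count is read from those that passed. Flt3 was at -1.84 and Cd34 at -1.18. Dntt, the lymphoid enzyme that adds bases to receptor gene joints, was found in 5.68% of tag-high and 43.2% of tag-low cells. It was thus among these 3, and its ratio is not read. In library 1 the myeloid granule genes did not follow Flt3 and Cd34. Mpo had a log2 ratio of 0.21 there, and Ctsg was at 67.4 CPM in the tag-high and 28.7 CPM in the tag-low cells. A count with no detection limit was added after the data had been seen. By it, 5 of the 12 listed genes were past 1.5-fold lower and 1 higher in library 1, and 8 lower and 0 higher in library 2. The share over all genes without the limit is not given here, so nothing is read from these counts.

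Several defining markers of the cell types best known for CLCA3A1 were at or near 0 in the tag-high cells, and others of the same lists were not. Over the 396 cells of the highest decile, of the lymphatic genes Prox1, Pdpn and Flt4 had 0 UMIs and Lyve1 had 3, and Cdh5 of blood vessel junctions had 1. Pecam1, Emcn and Egfl7, which LSK cells also express, were found in 40.9%, 49.1% and 85.0% of tag-high cells with a Clca3a1 UMI and in 49.8%, 41.9% and 84.8% of all cells, and Kdr in 12.7% of cells with and 8.52% of cells without a Clca3a1 UMI. Of the stromal genes Pdgfra had 0 UMIs, Lepr 1, Col1a1 3 and Cxcl12 4, and Col1a2 was found in 14.1% and 12.5%. In tag-high over tag-low cells without a Clca3a1 UMI, the CPM ratio was 5.72 (3.11 to 10.2) for Kdr and 3.81 (2.39 to 5.91) for Col1a2, and their part in the results was not tested. The LSK sort markers were present, with Ly6a (Sca-1) in 95.5% and 90.9% and Kit in 82.7% and 88.6%. Scrublet called 36 of 4068 kept cells doublets (0.885%), of which 6 lay among the 220 tag-high cells with and 3 among the 176 without a Clca3a1 UMI, and they were kept.

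The column of tags mapped to no antibody served as a control for tag depth. It is no measure of unspecific binding, for which isotype control tags were not analysed here. With cells ranked by unmapped tags within their library, the highest decile held 29.4 CPM of Clca3a1 and the lower 5 deciles 9.99 CPM. This was a ratio of 2.95 (2.50 to 3.47), against 48.1 for the CLCA3A1 tag. It was 2.11 (1.01 to 4.40) in library 1 and 3.31 (2.79 to 3.91) in library 2. The unmapped tags were thus not free of the pattern, but their contrast was a small part of that of the CLCA3A1 tag. With deciles taken over both libraries together it was 0.987 (0.815 to 1.19), and with a stricter cell filter 0.582 (0.172 to 1.59). Both of these intervals held 1. Within the lower 5 CLCA3A1 tag deciles the ratio was 0.246 (0.0478 to 0.800), from 3 UMIs in the highest unmapped decile. There it was 0.262 (0.0507 to 0.854) in library 2, and the highest unmapped decile of library 1 held 0 UMIs.

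Unmapped counts went along with the antibody tags of a cell. They gave r of 0.225 with the CLCA3A1 tag in library 1 and 0.313 in library 2, and 0.679 and 0.284 with the CD48 tag. In library 2 cells in the highest unmapped decile had a median of 227 CLCA3A1 tags and 939.5 CD150 tags, against 14 and 9 in the lowest.

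The CLCA3A1 contrast was present at each level of unmapped tags. By tertile of the unmapped count, the ratio of Clca3a1 CPM between the highest and the lower 5 tag deciles was 4.35 (1.09 to 12.7), 29.2 (17.2 to 51.7) and 79.5 (48.5 to 140). The lowest tertile had 4 Clca3a1 UMIs in 31 highest-decile cells. The ratio in library 2 was 15.4, 38.7 and 72.3, the first from 2 UMIs in 3 highest-decile cells. In library 1 it was 19.6 (1.02 to 1158) and 30.2 (8.65 to 162), and in the third tertile the lower deciles held 0 UMIs against 26 in the highest. When the CLCA3A1 tag was divided by the unmapped tag (1 added to each), the ratio of the deciles was 35.7 and r was 0.463.

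**Figure D5:**
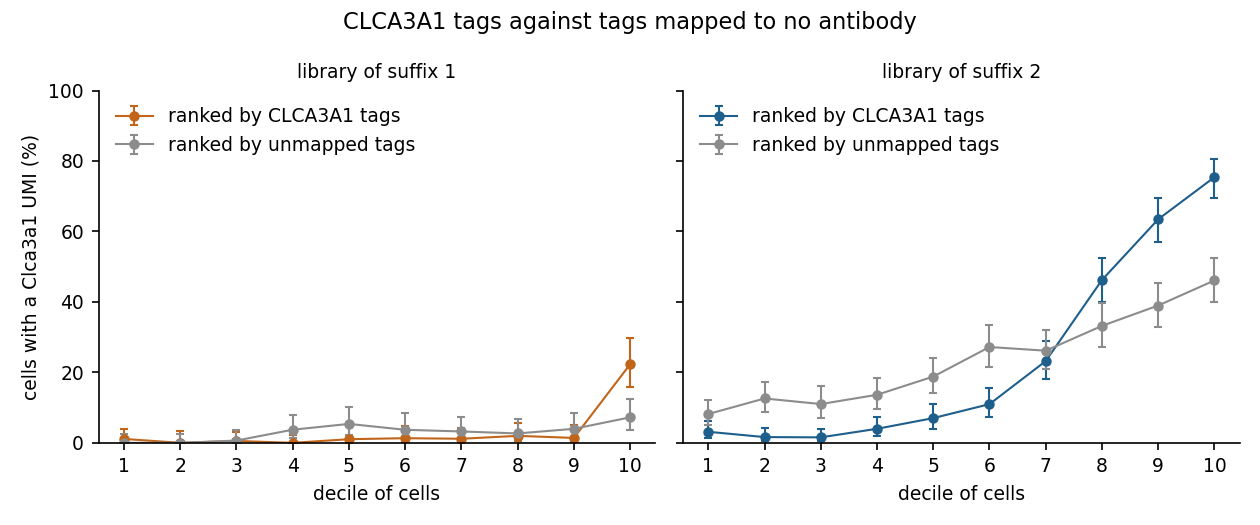
Share of cells with a Clca3a1 UMI (%) in deciles of the CLCA3A1 tag (colour) and of the unmapped tag (grey), set within library 1 (left) and library 2 (right), with 95% intervals for counting error. In library 2 the highest decile reaches 75.4% by CLCA3A1 and 46.1% by unmapped tags, and in library 1 22.3% and 7.24%.

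The genes most like the Clca3a1 transcript across cells were named by the lower of their r values in the 2 libraries, among 10652 genes found in at least 5% of cells. They were Cavin2 (0.351), Clec1a (0.311), Gda (0.269), Vwf (0.250), Aldh1a1 (0.248), Mmrn1 (0.244), Trpc1 (0.228), Apoe (0.228), Plxdc2 (0.221) and Tgm2 (0.208). Cavin2 encodes a protein of caveolae, Clec1a a C-type lectin, Gda guanine deaminase, Aldh1a1 a retinaldehyde dehydrogenase, Mmrn1 a platelet and endothelial glycoprotein, Trpc1 a cation channel, Apoe a lipid carrier and Tgm2 a transglutaminase. In library 2 the r of these genes ran from 0.248 (Plxdc2) to 0.491 (Apoe).

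The genes most like the CLCA3A1 tag were Apoe (0.390), Aldh1a1 (0.364), Mmrn1 (0.355), Pdzk1ip1 (0.342), Clec1a (0.341), Cavin2 (0.327), Trim47 (0.308), Gng11 (0.305), Tgm2 (0.304) and Cd63 (0.304). The 2 lists of 10 shared 6 genes: Aldh1a1, Apoe, Cavin2, Clec1a, Mmrn1 and Tgm2. Clca3a1 itself took place 15 for its own tag by this measure (0.272), with 14 genes (0.131% of those compared) above it, and its r in library 2 (0.538) stood below that of Apoe (0.697). With the unmapped tags, the r of these 10 genes ran from -0.247 (Gng11) to 0.0961 (Cavin2) in library 1 and from -0.0744 (Cd63) to 0.270 (Cavin2) in library 2.

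All 12 genes of the stem cell list had an r above 0 with the CLCA3A1 tag in both libraries, as had 37.9% of the 10650 genes compared, with values from 0.079 (Hlf) to 0.342 (Pdzk1ip1) in library 1 and from 0.212 (Ctnnal1) to 0.569 (Pdzk1ip1) in library 2. Of the 8 genes of the progenitor list found often enough, none was above 0 in both libraries and 6 were below 0 in both (27.4% of all genes compared), with Cd34 (-0.369 and -0.627) and Flt3 (-0.339 and -0.571) the lowest. The median of r with the tag over all genes compared was 0.0135 in library 1 and -0.00582 in library 2.

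The TAZ and TEAD list held few genes with enough UMIs. Of its 15 genes, Tead1, Tead4, Ctgf and Ankrd1 had 0 UMIs in the kept cells. Wwtr1, which encodes TAZ, was at 5.66 CPM over all cells, and in tag-high cells with and without a Clca3a1 UMI at 6.82 and 5.15 CPM in library 1 and at 21.1 and 23.5 CPM in library 2. Its r with the tag was 0.160 in library 1 and 0.280 in library 2, and with the Clca3a1 transcript 0.128 and 0.198. Tead2, a DNA-binding partner of TAZ, was at 13.6 and 12.2 CPM in the same cells of library 1 and at 23.8 and 21.4 CPM in those of library 2. Amotl2, a known target of TAZ, was at 3.41 and 0.936 CPM in library 1 (2 UMIs each) and at 13.97 and 13.88 CPM in library 2. The intervals of each pair overlapped. In tag-low cells without a Clca3a1 UMI, Wwtr1 was at 0.405 CPM in library 1 and 1.84 CPM in library 2, and Tead2 at 3.57 and 4.96 CPM, below the tag-high cells without one. Tead2 had an r with the tag of 0.111 in library 1 and 0.210 in library 2. The other listed genes found often enough did not follow the tag in this way. Lats1, Lats2 and Vgll4 were at 0.0507, 0.000408 and -0.0241 in library 1 and at -0.00147, 0.0502 and -0.00669 in library 2.

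Of the chloride channel partners, Ano1, the calcium-activated chloride channel that other CLCA proteins act on, had 1 UMI in all kept cells. Ano6, a lipid scramblase and ion channel, was at 20.5 and 18.7 CPM in tag-high cells with and without a Clca3a1 UMI in library 1 and at 17.2 and 18.2 CPM in library 2. Ano10 was at 13.6 and 10.8 CPM in library 1 and at 4.75 and 3.20 CPM in library 2, with intervals that overlapped. Their r with the CLCA3A1 tag lay between -0.095 and 0.050 in the 2 libraries.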

How the data were processed

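The authors sorted LSK cells, made 1 Chromium 3′ library with antibody tags per age group, and counted transcripts with Cell Ranger 3.1.0 against mm10 (GRCm38). Antibody tags were counted with CITE-seq-Count. The deposited matrix holds UMI counts per gene and cell, merged by Cell Ranger's aggregation with library normalization (mode not given in the sources used here). The deposited tag values are log10 of tag counts per cell, and 100% of finite values gave whole counts (tolerance 1e-06), which were used. Of 4685 barcodes with tags, 4573 were in the matrix.

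Cells with under 10% mt- UMIs and over 1500 genes were kept, doublets included. Kept cells with tags held 27073429 UMIs in library 1 and 43434366 in library 2, with 10042.5 and 29660 UMIs per cell at the 10th and 90th percentiles. Tag deciles, gates and all counts were computed with python 3.11.15, numpy 2.4.6, scipy 1.17.1, pandas 2.3.3 and scanpy 1.11.5, and figures with matplotlib 3.10.9. Levels carry exact Poisson intervals, ratios exact conditional binomial intervals, shares Clopper-Pearson intervals and medians order-statistic intervals, all at 95% and for counting error alone. A level or share of 0 is given with the limit that 3 counts allow. With 1 library per age and no map from suffix to age, no p-value was computed. Named were the Clca family, Slamf1, Cd48, fixed lists (TAZ and TEAD, chloride channel partners, stem cell, progenitor, endothelial, stromal and LSK sort markers), the 10 genes most like transcript and tag, and the 5 largest differences each way among tag-high cells. The gene and the lists were chosen with earlier results of these data known. The steps were tested on simulated data. Isotype control tags were not analysed here.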

Additional observations from a re-analysis of the deposited data

Results flagged for a closer look

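Cells that failed the filter on mitochondrial share and gene number carried a Clca3a1 signal outside the cells reported. In these 620 cells the level was 62.9 CPM (54.2 to 72.5), from 189 UMIs, and 114 cells held a UMI (18.4%, 15.4 to 21.7), at a median depth of 3936 UMIs. Transcript and tag followed each other there too, with a Spearman's rho of 0.502 over the 587 cells that had tags. The level was 86.3 CPM in the 448 failed cells of library 2 and 6.77 CPM in the 172 of library 1.

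The 112 barcodes with tags that are not in the matrix had a median of 7.5 CLCA3A1 tags and a highest count of 331. Their medians were 14 for CD150, 28.5 for CD48 and 4 for tags mapped to no antibody.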

How the results depend on the processing

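Of 93 recomputed values, 41 stayed close to the reported one, 50 moved and 2 reversed, and the cause was not tested. Both reversed values were unmapped ratios under 1 with intervals that held 1. Close meant within the 95% counting interval for ratios, shares and the log10 difference, within 0.05 for r and AUROC, and within 1.5 times for gene counts. The stricter cell filter (over 2500 genes, under 5% mt- UMIs) left 367 cells and gave a gate ratio of 17.2, a decile ratio of 130, 36.8% of highest-decile cells without a UMI, a log10 tag difference of 1.36, an unmapped ratio of 0.582 (reversed), 3024 genes past 1.5-fold and a library ratio in the gate of 28.9, the last from 1 UMI in library 1. Library 1 alone gave 4.20 for the gate, r of 0.272, 77.7% without a UMI, 1.06 for the log10 difference, 2.11 for unmapped tags and 798 genes. Library 2 alone gave 5.01, 24.6% and 1.11 for gate, share and log10 difference.

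Percentiles or deciles over both libraries together gave 10.9 for the gate, 96.0 for the deciles, 27.2% without a UMI, 0.987 for unmapped tags (reversed), 57 genes and 4.39 between libraries in the gate. The centred log ratio of the tags gave 6.80, 15.4, r of 0.423, 64.2%, 0.52 and an AUROC of 0.835. Dividing by unmapped tags gave a decile ratio of 35.7, r of 0.463, 55.6% and 1.11. Thinning to 9000 UMIs gave a gate ratio of 4.84, r of 0.471, 56.7% and an unmapped ratio of 3.95, and thinning to 5000 gave 4.78, 0.398, 69.6% and 3.52, with a log10 difference of 1.18. Gating at the 90th and 10th percentiles gave a gate ratio of 3.69 and a library ratio of 6.82. Raw counts gave r of 0.617, and a minimum of 2 UMIs a log10 difference of 1.32. The highest 5% and 25% of tags held 38.3% and 55.1% without a UMI, the latter with 456 genes past the fold, and 598 within the gate. Adding 1 or 50 CPM in place of 10 gave 975 and 42 genes. Of alternatives chosen after seeing the data, gate cells with 100 or more tags gave a library ratio of 4.63, and leaving out cells with 100 or more Igkc or Pf4 UMIs moved the gene count by less than 1.5 times.

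No paired analysis was possible because each age group is 1 library. Library 1 held 58 Clca3a1 UMIs, so its shares in single gates or deciles rest on few counts. Library and age cannot be told apart in the gap between the libraries.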
